A study of Mus musculus with 6 samples.

Results

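Oxidative phosphorylation is carried out in the inner mitochondrial membrane by 5 protein complexes. Complexes I, III and IV pass electrons to oxygen and pump protons, complex II feeds in electrons from succinate, and complex V, the ATP synthase, uses the returning protons to make ATP. Most subunits are encoded in the nucleus, are made in the cytosol and must be matched in amount, and embryonic stem cells are known for combining this machinery with a high rate of glycolysis. The genes described here are those whose symbol on the array starts with Nduf, Uqcr or Atp5, or with Cox followed by a digit from 4 to 8, together with Sdha, Sdhb, Sdhc and Sdhd. They were 90 of the 18194 genes with a probe set of their own, and 179 of 45101 probe sets: 44 genes of complex I, 4 of complex II, 8 of complex III, 17 of complex IV and 17 of complex V. The choice used names only, no measured value. Subunits encoded in mitochondrial DNA do not carry these names.

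The samples were 3 cultures given mimics of the miR-290 cluster and 3 given an siRNA against Renilla luciferase (siRL, the control siRNA), all of the Dicer -/- embryonic stem cell line 27H10, kept undifferentiated and examined 24 h after transfection. Both groups thus lack Dicer, the enzyme that makes mature microRNAs, and the mimics return microRNAs of 1 cluster that such cells cannot make themselves. This is 1 line, and nothing in the labels says whether the replicates were separate cultures in time, so the p-values measure the spread between these arrays, which may be technical. The 6 stem cell markers (Pou5f1, Nanog, Sox2, Zfp42, Dppa5a and Esrrb) were all measured, with summed intensities of 90106 to 95530 on the mimic arrays and 85160 to 93216 on the control arrays. None was called by limma, but Esrrb and Zfp42 had groups that did not overlap (log2 fold changes, mimics minus control siRNA, of 0.23 and 0.12), and Esrrb was called higher with the more sensitive prior described further on (limma adjusted p = 0.0158). Of 8 fibroblast markers 4 lay below the filter on low values (Col1a1, Col1a2, Col3a1 and Postn), and the 8 summed to 383 to 466 on the mimic arrays and 427 to 454 on the control arrays. Of the other 4, Thy1 and Lum overlapped between groups. Every mimic value was below every control value for Dcn (−0.90, limma adjusted p = 0.105) and above it for Pdgfrb (0.43, limma adjusted p = 0.0859). Below the filter, every mimic value was also below every control value for Col1a1 (−1.14, not tested). The groups overlapped for Col1a2, Col3a1 and Postn. Over all genes tested, every mimic value was below every control value in 19.3% and above it in 16.2%. The part of fibroblasts in the results was not tested. Median intensity per array was between 41.7 and 44.9, and the number of arrays limits the precision. In such bulk RNA, less RNA per cell and fewer cells with the RNA cannot be told apart.

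The sequences that define the treatment are the mature microRNAs of the cluster, shown because their seeds (bases 2 to 8, in capitals) set which transcripts they can pair with. The labels do not say which of them were supplied as mimics. Those below are the 3p arms found in the RefSeq table for GRCm38.p6, on the plus strand of chromosome 7; miR-292a-3p is not shown. The first 3 share the seed AAGUGCU, the next pair differs from it in the last base, and miR-293-3p has the shifted seed GUGCCGC.
miR-291a-3p: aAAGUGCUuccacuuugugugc
miR-294-3p: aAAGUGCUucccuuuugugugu
miR-295-3p: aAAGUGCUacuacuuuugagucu
miR-290a-3p: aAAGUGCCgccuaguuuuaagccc
miR-291b-3p: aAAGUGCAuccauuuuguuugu
miR-293-3p: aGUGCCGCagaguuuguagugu

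The oxidative phosphorylation genes differed little between cells given the miR-290 mimics and cells given the control siRNA. Of the 90 genes, 88 passed the filter (a mean log2 intensity of at least 4 over the 6 arrays, on the brightest probe set of each gene), and 0 of the 88 were called, higher or lower, by limma at a Benjamini-Hochberg adjusted p under 0.05. Of all 13815 genes tested in the same fit, 1.83% were called. At an unadjusted p under 0.05, 8 of the 88 were higher and 0 were lower. Over all genes 9.99% were higher and 14.5% lower (24.5% in either direction). Among the 1320 genes with a mean log2 of at least 12, 13.8% were higher and 5.68% lower (19.5% in either direction). The smallest adjusted p among the 88 was 0.109.

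The size of the differences was small as well as uncalled. The log2 fold change (mimics minus control siRNA) had a median of 0.05 over the 88 genes, against −0.01 over all genes tested and 0.06 over the genes with a mean log2 of at least 12. It was under 0.1 in either direction for 55 of the 88 (62.5%), while 26.8% of all genes and 49.4% of the bright ones were that close to 0. The 95% interval of the fold change stayed inside 1.5-fold in either direction (0.58 on the log2 scale) for 82 of the 88 genes (93.2%), so for these a larger change lay outside the interval. The share was 50.6% over all genes tested and 95.4% over the bright ones. The other 6 were Ndufs8 and the dim Ndufb4, Cox4i2, Cox6a2, Cox7b2 and Cox7c. Most members are bright, 71 of the 88 having a mean log2 of at least 12, and the median SD between replicates was 0.055 in the mimic group and 0.055 in the control group on the log2 scale. The brightness limit of 12 was chosen after the values were seen.

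**Figure D1:**
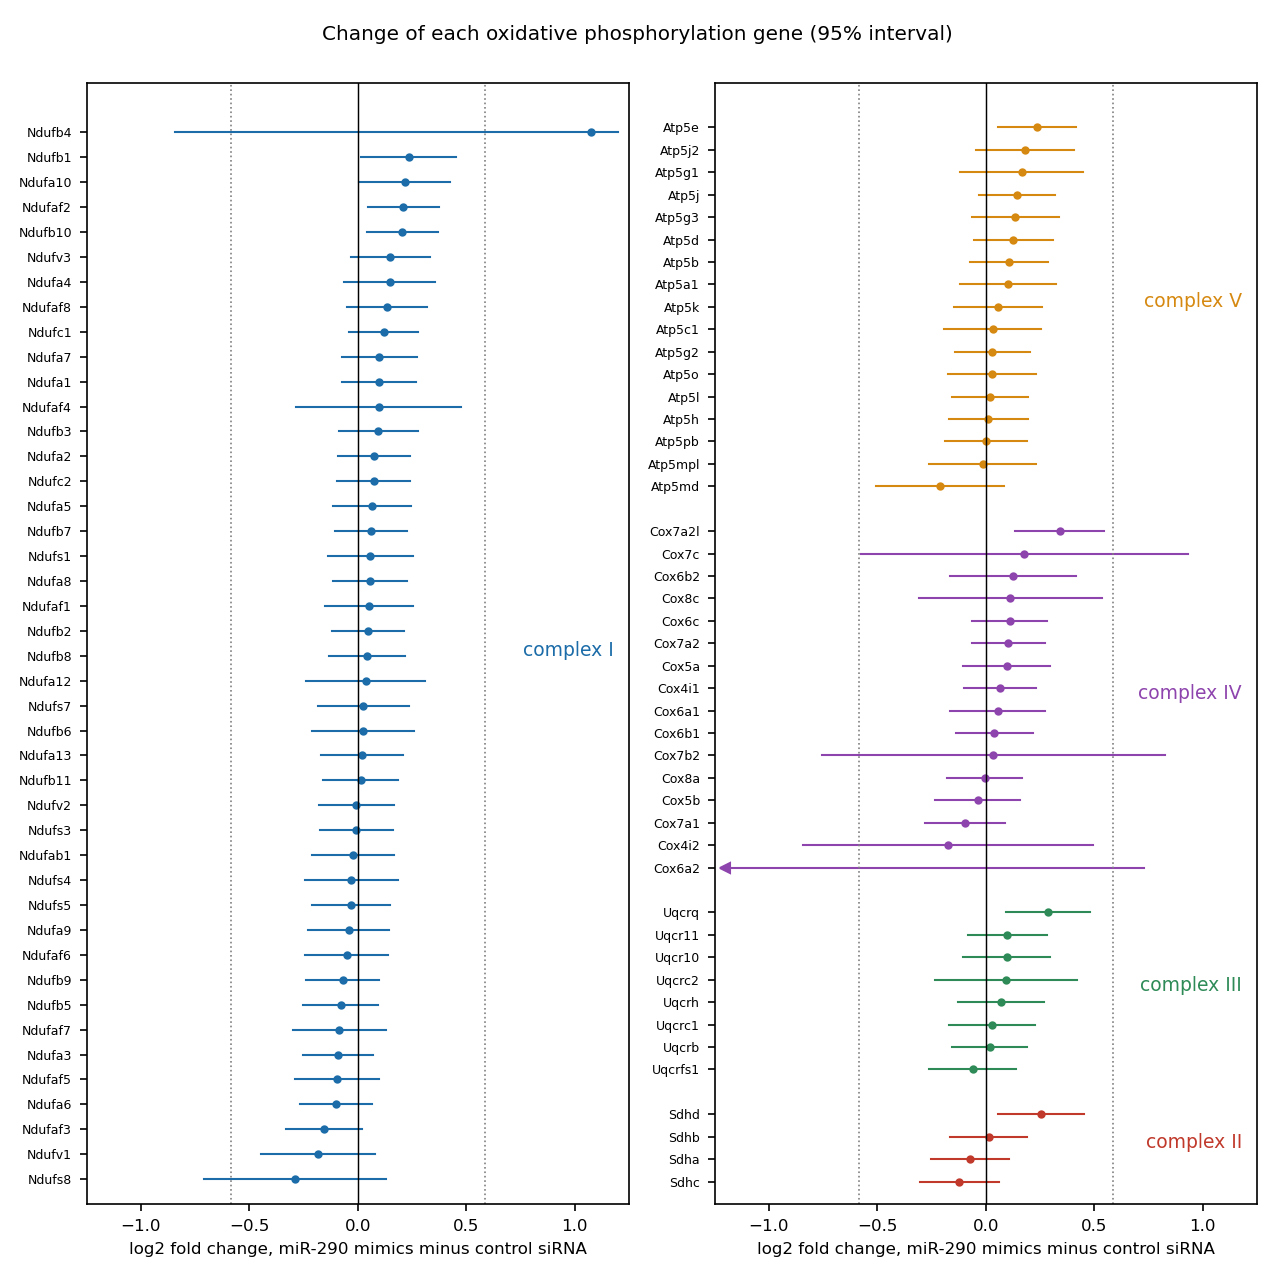
Log2 fold change of each of the 88 tested genes (points) with its 95% interval from limma (lines), by complex; dotted lines mark a 1.5-fold change, and intervals are cut at the axis ends (the arrow is Cox6a2, at −1.22). Nearly all points lie close to 0, and the widest intervals, except that of Ndufs8, belong to dim probe sets.

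Direction was counted by whether the 3 mimic values lay beyond the 3 control values. They were all higher for 24 of the 88 genes and all lower for 7. Over all genes tested these shares were 16.2% higher and 19.3% lower, and over the bright genes 32.5% higher and 13.2% lower. The members' excess of higher over lower genes therefore stood beside a like excess among the bright genes of the whole array. On the log2 scale the median member deviated from the control mean by 0.07, 0.06 and 0.02 on the mimic arrays and by −0.03, 0.03 and 0.01 on the control arrays. For the bright genes of the array the same values were 0.07, 0.06 and 0.04 with the mimics, and −0.02, 0.03 and −0.00 with the control siRNA. The members' shift between groups was thus about as large as the spread between arrays of 1 group, and the genes of like brightness moved with it; whether signal level sets the shift was not tested.

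**Figure D2:**
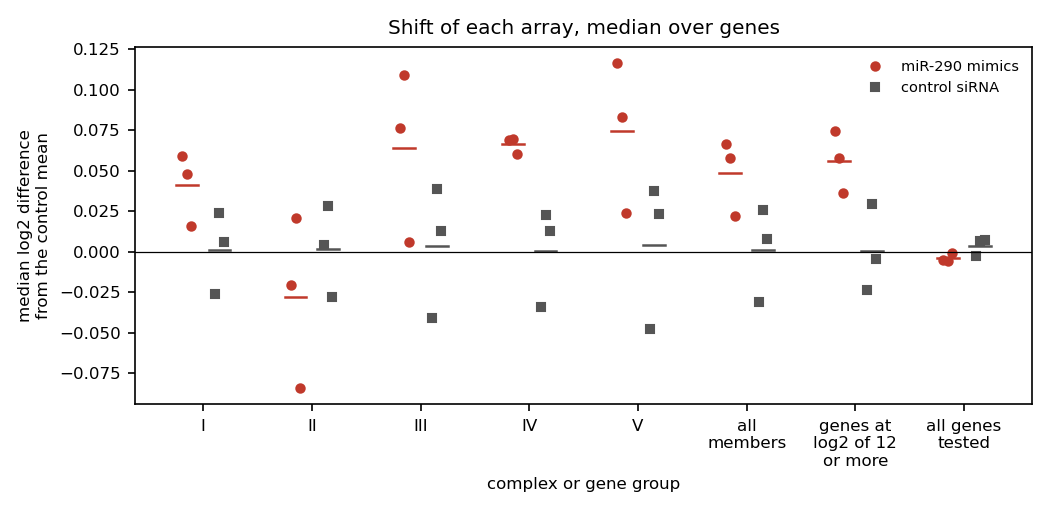
Median log2 difference of each array from the mean of the control arrays, for each complex, all members, the bright genes of the array and all genes tested; points are arrays, short bars are group means. Mimic arrays lie between −0.08 and 0.12 in the 5 complexes, and control arrays between −0.05 and 0.04.

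**Figure D3:**
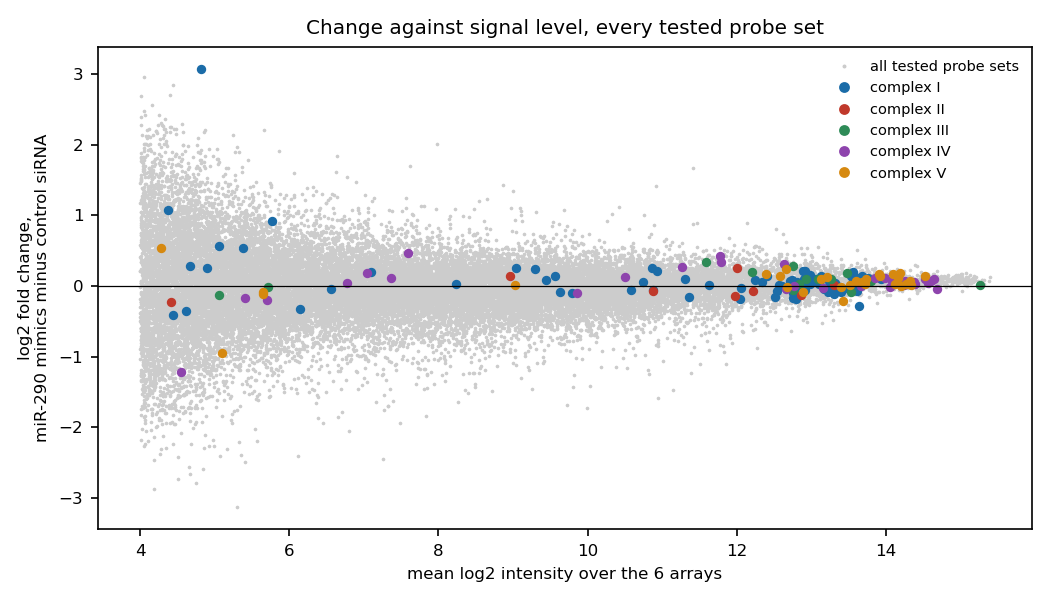
Log2 fold change of every tested probe set against its mean log2 intensity, with the probe sets of the 5 complexes in colour. The spread narrows with brightness, and the 143 member probe sets at a mean log2 of at least 8 lie between −0.29 and 0.42.

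Complex I takes electrons from NADH. Of its 44 genes 43 were tested, with a median log2 fold change of 0.04. The 6 core subunits on the array, which carry the NADH site and the iron-sulfur clusters, had a median of −0.01, the 29 tested accessory subunits one of 0.06, and the 8 assembly factors one of 0.00. Ndufs8, a core iron-sulfur subunit, had the lowest log2 fold change, with intensities of 13879, 10201 and 10880 with the mimics, against 15429, 12087 and 15080 with the control siRNA. The groups overlapped and both were scattered (log2 fold change −0.29 ± 0.17 SE, limma adjusted p = 0.396). Its 6 tested probe sets gave −0.29, −0.04, −0.11, −0.19, 0.02 and 0.20, the last from a dim one (mean log2 under 8). The 5 brighter ones spanned 0.31, the widest disagreement between bright probe sets of any member. Ndufv1, the core subunit that binds NADH and flavin, stood at 7410, 6051 and 6630 with the mimics and at 7462, 8041 and 7270 with the control siRNA (−0.18, limma adjusted p = 0.39).

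Among complex I genes with a mean log2 of at least 8, the highest fold changes were in accessory subunits. Ndufa10 had intensities of 8119, 8309 and 8561 in mimic cells, against 7663, 7207 and 6671 in control cells, so that the groups did not overlap (log2 fold change 0.22 ± 0.083 SE, limma adjusted p = 0.236). Ndufb1 had 634.5, 716 and 688 with the mimics and 548, 611 and 573 with the control siRNA (0.23, limma adjusted p = 0.224). The brightest accessory probe sets showed less: Ndufa7 averaged 16268 ± 616 in mimic cells and 15182 ± 93.1 in control cells, and Ndufc2 14307 ± 404 in mimic cells and 13595 ± 166 in control cells (SD, n = 3 each), with log2 fold changes of 0.10 and 0.07. Ndufa4, long listed with complex I and now counted with complex IV, gave 0.15 (limma adjusted p = 0.39), and its paralog Ndufa4l2 was below the filter.

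Complex II, succinate dehydrogenase, belongs both to the citric acid cycle and to the electron chain. Neither catalytic subunit was called: Sdha, the flavoprotein, gave −0.07 and Sdhb, the iron-sulfur protein, 0.01, with limma adjusted p-values of 0.606 and 0.934. The membrane anchors, which hold the ubiquinone site, had fold changes on opposite sides of 0. Sdhd had 4612, 4580 and 4304 in mimic cells, against 3892, 3885 and 3552 in control cells, a log2 fold change of 0.25 ± 0.078 SE (limma adjusted p = 0.167). Sdhc had 6848, 7513 and 7135 in mimic cells, against 7839, 7651 and 7897 in control cells (−0.12 ± 0.072 SE, limma adjusted p = 0.41). In neither gene did the groups overlap, and neither was called; the difference between the 2 genes was not tested. A dimmer Sdhd probe set gave 0.15 with overlapping groups.

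Complex III hands electrons from ubiquinol to cytochrome c. All 8 genes were tested, with a median of 0.08, and 7 of the 8 were above 0. Among the 1320 genes with a mean log2 of at least 12, 883 were above 0. With quantile normalization Uqcrb (−0.07), Uqcrc1 (−0.01), Uqcrh (−0.0004) and Uqcrfs1 (−0.10) lay below 0. Uqcr10, Uqcr11, Uqcrc2 and Uqcrq stayed above it. Uqcrq, a small subunit beside the ubiquinone site, had 7308, 8086 and 7536 with the mimics, against 6319, 6029 and 6431 with the control siRNA. The groups were clearly apart, by 1.22-fold (log2 fold change 0.29 ± 0.077 SE, limma adjusted p = 0.132). Its 2 other tested probe sets were dim and gave −0.02 and −0.12. Uqcrb, a small subunit that helps bind ubiquinone, differed by 0.02, at 40904, 38824 and 38917 in mimic cells and 38009, 39679 and 39510 in control cells. Uqcrh, the hinge protein of cytochrome c1, and Uqcr11 gave 0.07 and 0.10, and Uqcrfs1, the Rieske iron-sulfur protein, −0.06. For Uqcr10 the brightest probe set gave 0.10 while 2 others gave 0.20 and 0.34, the last with 3469, 3460 and 3440 in mimic cells, against 2664, 2838 and 2678 in control cells (limma adjusted p = 0.0788).

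Complex IV, cytochrome c oxidase, has subunits that exist in several forms. None of the general forms was called. Cox4i1 had 26148, 25528 and 25106 with the mimics and 23932, 24696 and 24699 with the control siRNA, a log2 fold change of 0.07 with a 95% interval of −0.10 to 0.23. Cox6a1 (0.05), Cox6b1 (0.04), Cox7a2 (0.10), Cox8a (−0.01) and Cox5b (−0.04) had intervals within −0.23 and 0.27. Of the forms restricted to heart and skeletal muscle, none was called. Cox6a2 was at 7.2, 9.8 and 51.0 in mimic cells, against 41.8, 31.4 and 34.6 in control cells, a log2 fold change of −1.22 with a 95% interval of −3.17 to 0.73, and Cox8b was below the filter. Cox7a1 was measured well, at 894 ± 27.4 in mimic cells and 956 ± 40.3 in control cells (SD, n = 3 each). Its log2 fold change was −0.10 (limma adjusted p = 0.518), with every mimic value below every control value. Of the 16 tested complex IV genes it was the 1 in that order, while 4 had every mimic value above (Cox4i1, Cox6c, Cox7a2 and Cox7a2l). Over all genes tested the shares were 19.3% lower and 16.2% higher. Cox4i2, the form known from lung, was at 27.9, 48.8 and 46.0 with the mimics and 36.9, 52.5 and 46.5 with the control siRNA. The testis forms Cox6b2 (1514 ± 108 in mimic cells and 1391 ± 148 in control cells, SD, n = 3 each) and Cox8c (173 ± 30.5 in mimic cells and 159 ± 16.4 in control cells) gave 0.13 and 0.11 with overlapping groups.

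The largest difference among well measured members was in Cox7a2l, a relative of Cox7a2 that is known as a factor joining complexes III and IV into a supercomplex. Its intensities were 3857, 4111 and 3964 with the mimics, against 3009, 3386 and 3043 with the control siRNA. Every mimic value lay above every control value, by 1.27-fold on the group means of the log2 values (log2 fold change 0.34 ± 0.082 SE, 95% interval 0.13 to 0.55), and limma's adjusted p was 0.109. Its 2 further probe sets gave 0.42 and 0.27 with groups that did not overlap either (limma adjusted p = 0.0769 and 0.111).

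Complex V makes ATP. All 17 genes were tested, with a median of 0.06. On the brightest probe sets the F1 head was slightly above 0 in each of its 5 genes, with a median of 0.11. Atp5a1 (0.10) and Atp5b (0.11) encode its catalytic ring, and Atp5c1 (0.03) and Atp5d (0.13) its shaft. Atp5e (0.24), the epsilon subunit, was highest in the head. Of the 1320 genes with a mean log2 of at least 12, 883 were above 0, with a median of 0.06. Atp5a1 probe sets at a mean log2 of at least 8 ran from −0.09 to 0.10. With quantile normalization Atp5c1 gave −0.05, while Atp5a1, Atp5b, Atp5d and Atp5e stayed above 0. Atp5e had 7325, 6878 and 6824 in mimic cells, against 5854, 6101 and 5884 in control cells (0.24 ± 0.071 SE, limma adjusted p = 0.158). The 12 genes of the membrane part and the stalks had a median of 0.03. Atp5g1, Atp5g2 and Atp5g3, which encode the same mature subunit of the rotor ring, gave 0.17, 0.03 and 0.14 (limma adjusted p = 0.467, 0.838 and 0.408). Atp5j2 was at 19986 ± 1072 in mimic cells and 17643 ± 1203 in control cells (SD, n = 3 each; 0.18). Atp5h gave 0.01, Atp5mpl −0.01 and Atp5md, a small subunit linked to pairing of the enzyme, −0.21, the last with 9740, 11831 and 9338 in mimic cells, against 11807, 11318 and 12520 in control cells (limma adjusted p = 0.381).

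When limma's prior variance was allowed to vary with brightness and outlying variances were downweighted (the level-dependent robust prior), 7 members were called higher and 0 lower. Over all genes it called 6.2% higher and 9.43% lower, and over the bright genes 16.2% higher and 6.44% lower, so the members' share of higher calls lay between these 2 backgrounds. The 7 were Cox7a2l (limma adjusted p with this prior = 0.00425), Uqcrq (0.00517), Atp5e (0.00991), Ndufb10 (0.0116), Sdhd (0.0149), Ndufa10 (0.0289) and Ndufaf2 (0.0372). Cox7a2l and Uqcrq kept the call whichever array was left out, with largest limma adjusted p-values of 0.0238 and 0.0226, while the other 5 lost it at least once. Ndufb10, an accessory subunit, and Ndufaf2, an assembly factor of complex I, are named because of this result: Ndufb10 had 8040, 8260 and 8240 in mimic cells, against 7075, 7186 and 7024 in control cells, and Ndufaf2 had 2075, 2103 and 2120 in mimic cells, against 1856, 1787 and 1804 in control cells. All 7 differed by less than 1.3-fold.

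**Figure D4:**
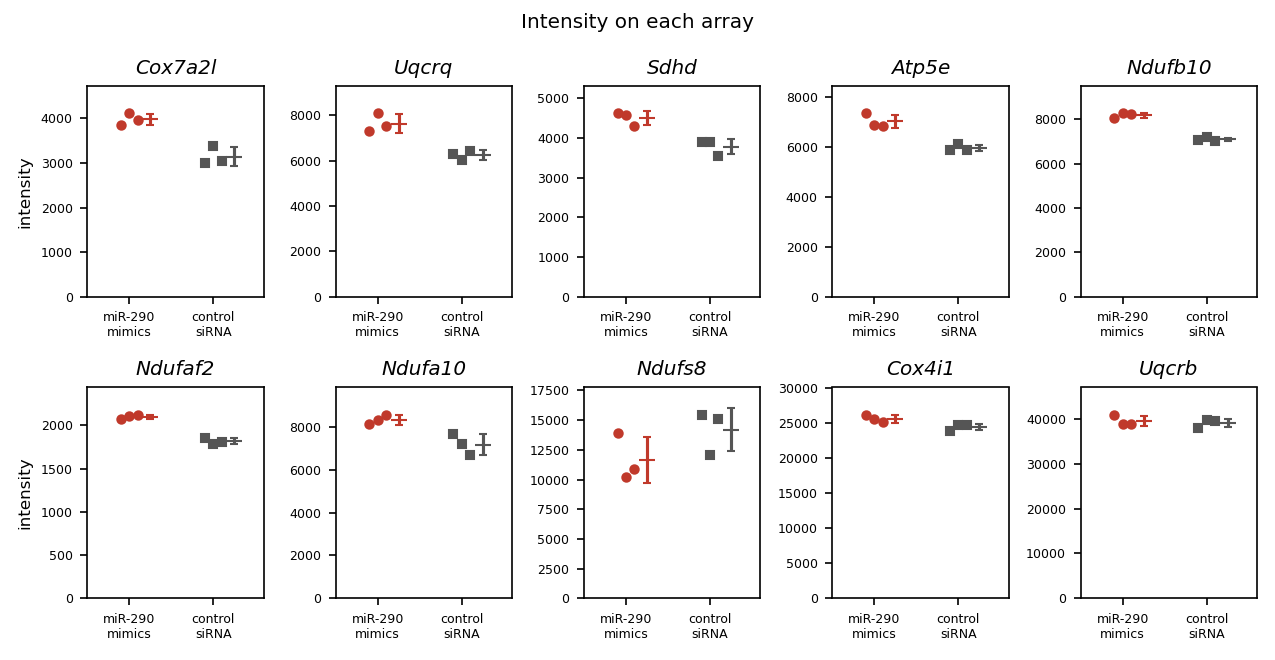
Intensity on each array for the 7 genes called higher with the level-dependent robust prior, then Ndufs8, Cox4i1 and Uqcrb; points are arrays, bars are the mean ± SD (n = 3 each), and axes start at 0. The 7 have groups that do not overlap, whereas those of Ndufs8 and Uqcrb do.

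Probe sets of the same gene mostly gave similar fold changes. Among 42 genes with more than 1 probe set at a mean log2 of at least 8 (103 probe sets), the log2 fold changes of a gene's probe sets differed by a median of 0.07, and by more than 0.25 only in Ndufs8 (0.31). In 11 of the 42 they had both signs. For 18 of the 90 genes the brightest probe set carries an s_at or x_at suffix, the maker's mark for probes that can match several transcripts, and Cox7a2l, Uqcrq and Atp5e are among them. Dim probe sets were erratic: the 26 tested ones under a mean log2 of 8 ranged from −1.22 to 3.07.

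Genes that serve the same machinery were taken from lists of known function. Of 18 tested genes for assembly of complex IV and translation of its subunits, 0 were called by limma. An unadjusted p under 0.05 was reached by 5 (4 higher and 1 lower), against 24.5% of all genes, and the level-dependent robust prior called 1 higher, against 6.2% of all genes. That 1 was Cox17, a copper chaperone for the oxidase, with 12257, 12519 and 12399 in mimic cells, against 9816, 8871 and 9880 in control cells, a log2 fold change of 0.38 (limma adjusted p = 0.0814, and 0.000717 with that prior). Of 21 assembly genes for complexes I, II, III and V, 0 were called by limma and 6 had an unadjusted p under 0.05, 4 higher and 2 lower, against the same 24.5% of all genes. The robust prior called 3 higher, against 6.2% of all genes: Atpaf2, which helps build the F1 head (0.53, limma adjusted p = 0.0619), Dmac1 (0.28) and Uqcc3 (0.27). Of 10 tested genes of ubiquinone synthesis 0 were called by limma. Against those same shares of 24.5% and 6.2%, 1 of the 10 had an unadjusted p under 0.05 and was called higher with the robust prior, Coq7 (0.21).

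The cytochromes c1 and c had fold changes close to 0. Cyc1, the haem-bearing subunit of complex III outside the naming rule, had 12863, 12609 and 12257 with the mimics and 12302, 13001 and 12354 with the control siRNA, a log2 fold change of 0.00 with a 95% interval of −0.17 to 0.18. Cycs, cytochrome c itself, gave 0.03 (−0.15 to 0.21). Of the 11 tested carriers and partner enzymes 0 were called by limma, 1 had an unadjusted p under 0.05 (24.5% of all genes) and the robust prior called 1 higher (6.2% of all genes). It was Dhodh, which passes electrons from pyrimidine synthesis to ubiquinone, with 1062, 1181 and 1034 in mimic cells, against 762, 756 and 736 in control cells (log2 fold change 0.54 ± 0.082 SE, limma adjusted p = 0.0573). Groups did not overlap for 3 of the 11 in the higher direction and 2 in the lower, against 16.2% and 19.3% of all genes. The 3 higher were Dhodh, Atpif1 (0.09) and Slc25a4 (0.10). The 2 lower were Etfdh and Gpd2, which pass electrons to ubiquinone from fatty acid oxidation and from glycerol 3-phosphate. Etfdh and Gpd2 had log2 fold changes of −0.17 and −0.17, with limma adjusted p-values of 0.317 and 0.282, or of 0.195 and 0.0716 with the robust prior.

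Regulators of respiratory genes had a median of 0.10 over 15 tested. None was called by limma, 4 had an unadjusted p under 0.05, all higher, and the robust prior called 1 higher. Of all genes 24.5% had such a p in either direction, 9.99% in the higher one, and the robust prior called 6.2% higher. Tfam, which packages mitochondrial DNA and starts its transcription, had 2683, 2446 and 2614 in mimic cells, against 1861, 1604 and 1791 in control cells. The groups were far apart (0.56 ± 0.091 SE on the log2 scale), with a limma adjusted p of 0.0618, or of 0.00054 with the robust prior (at most 0.00519 when any 1 array was left out). None of the factors that bind promoters of respiratory genes was called: Nrf1 gave 0.10 (95% interval −0.09 to 0.30), Gabpa 0.01 (−0.38 to 0.39) and Esrra 0.23 (−0.16 to 0.61), with limma adjusted p-values of 0.514, 0.988 and 0.464. Of the coactivators, Ppargc1b gave −0.04 and Ppargc1a was below the filter. Pprc1 gave 0.17, with every mimic value above every control value (limma adjusted p = 0.23, or 0.0569 with the robust prior).

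Promoter sequence was examined as a feature that the naming rule did not use. Promoters of 74 of the 90 genes were found in the RefSeq table for GRCm38.p6, from 250 bases before the start site to 50 after it. The core of the NRF1 site, CGCATGCG, which reads the same on both strands, occurred in 10 of the 74 (13.5%) and in 2.07% of all 27025 genes with such a window. The core of the ETS site bound by GABP, CCGGAAG on either strand, occurred in 19 of the 74 (25.7%) and in 9.93% of all. The motifs cannot overlap. The 27025 genes exceed the 18194 with a probe set of their own and were not chosen by brightness. They are therefore not a like background for the mostly bright members. Both were present in 5 members and neither in 50, and the median log2 fold change was 0.05 in the 24 genes with a motif and 0.05 in the 49 tested ones without. A gene with several start sites counted if any of its windows matched. A match describes letters in a window, not binding. Atp5j, which encodes a stalk subunit of the ATP synthase, and Cox6a1 show both motifs in the 170 bases before a start site. Another Atp5j window, at a different start site, held neither motif. Motifs are in capitals, and CTTCCGG is CCGGAAG on the other strand.
Atp5j promoter, chr16:84834977-84835146, minus strand: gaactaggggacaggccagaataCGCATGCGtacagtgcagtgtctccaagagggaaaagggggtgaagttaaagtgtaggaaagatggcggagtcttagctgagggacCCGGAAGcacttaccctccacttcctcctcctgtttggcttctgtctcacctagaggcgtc
Cox6a1 promoter, chr5:115348959-115349128, minus strand: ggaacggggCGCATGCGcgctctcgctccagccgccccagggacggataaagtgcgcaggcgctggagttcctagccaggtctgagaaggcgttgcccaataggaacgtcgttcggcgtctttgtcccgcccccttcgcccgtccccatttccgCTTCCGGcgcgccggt
Neither gene was called: Atp5j gave 0.14 and Cox6a1 0.05 (limma adjusted p = 0.327 and 0.768).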

How the data were processed

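Gene expression was measured on 6 Affymetrix arrays, 3 per group; the titles in the labels give group and replicate. The authors deposited 1 intensity per probe set and array, on a linear scale. The submitters' processing notes name GCRMA, while the values share 1 trimmed mean (500.004 without the lowest and highest 2%) on each array, as global scaling gives; which tool made them is not settled here. Detection calls were not analysed, so dim values cannot be told from background.

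Values were log2-transformed with no offset and not normalized again. Control probe sets (64) and those with a mean log2 under 4 were left out, which left 29167. Groups were compared by limma (version 3.58.1, R version 4.3.3), with lmFit and eBayes at a constant prior variance and 2-sided tests, with Benjamini-Hochberg adjustment over all of them. Intervals are limma's moderated 95% intervals. Replicate means and SDs are of linear intensities. A gene was named by the platform table where a probe set had 1 symbol, and its brightest probe set stood for it; all 179 member probe sets matched a gene identifier of GRCm38.p6. The fit was run on simulated arrays in which the smallest planted change was 1.5-fold. It does not show how well smaller changes, such as most of those described here, would be found.

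Named were any called member, the 2 brightest, 2 highest and 2 lowest of each complex (the last 4 at a mean intensity of at least 256), the alternative isoforms, the Sdh genes, and 8 carriers and regulators; the robust prior, probe set disagreement, promoters and non-overlapping groups added further genes after their values were seen. Members and lists were chosen with earlier results of these data known. Deviations of same-numbered replicates had correlations of −0.01, 0.01 and 0.02 over all tested probe sets. Correlations over so many probe sets, many of them dim, cannot exclude a pairing. The labels do not say whether the numbers pair samples. Alternatives changed the prior, normalization, filter, offset, arrays used, the block and the probe sets per gene.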

Additional observations from a re-analysis of the deposited data

How the results depend on the processing

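The count of called oxidative phosphorylation genes stayed at 0 lower in every setting run with the constant prior, averaging over probe sets and leaving out each array included, and at 0 higher except for 2 with a filter at a mean log2 of 6 (Cox7a2l and Uqcrq) and 7 with the level-dependent robust prior. With that prior and, added after seeing the data, quantile normalization it was 6 higher and 6 lower, with median centring 8 and 0, and with the replicate block 9 and 1; without 1 array at a time it was 3 to 8 higher and 0 to 2 lower (3 higher without mimic array 1 or control array 3, 4 without mimic array 2). With the robust prior and the replicate block, the gene called lower was Ndufs8 (limma adjusted p = 0.0123). For all probe sets, 276 lower and 100 higher became 1522 and 851 with the filter at 6. They became 1914 and 1379 with the robust prior, 103 and 50 with median centring, and 442 and 186 with an offset of 16. With no filter or with the replicate block they were 0 and 0. Without 1 array at a time the lower calls were 0 and the higher ones 0 to 1. Fewer arrays or a block leave fewer degrees of freedom; beyond that, the cause was not tested.

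The median log2 fold change of a complex followed the scaling. Median centring gave 0.0905 for complex I, 0.0161 for II, 0.107 for IV and 0.10 for V, and moved the median of all probe sets by 0.05. Quantile normalization gave −0.0023 for I, 0.0232 for III, −0.0002 for IV and −0.0213 for V, so the sign of the small medians of I, IV and V is not settled. Nor is that of II, which was −0.03 in the main fit and 0.0161 with median centring. The median of III was positive in the settings given here. Over the left-out arrays the medians ran from 0.02 to 0.05 in I, −0.06 to 0.00 in II, 0.04 to 0.11 in III, 0.0412 to 0.0883 in IV and 0.01 to 0.09 in V. Of 466 values of the 36 tested named genes under alternatives, 459 stayed on the same side of the threshold, 7 passed it, and 22 uncalled ones had the other sign.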

Other observations

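Among probe sets that do not represent their gene, a dim one for Ndufb8 had the largest difference of any member: 95.5, 66.2 and 85.3 with the mimics, against 37.7, 4.11 and 5.89 with the control siRNA (log2 fold change 3.07 ± 0.87 SE, limma adjusted p = 0.146). The bright Ndufb8 probe set gave 0.04, with 10403, 10449 and 10185 in mimic cells and 9610, 10171 and 10336 in control cells. A dim Ndufs4 probe set had 80.8, 83.8 and 63.1 in mimic cells, against 43.1, 37.9 and 38.4 in control cells (0.92, limma adjusted p = 0.0554), where the bright one gave −0.03. Whether these dim probe sets read the same transcripts as the bright ones was not tested.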
